A study of Mus musculus with 93 samples.

Results

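Lysosomal enzyme and membrane genes were followed in peripheral blood cells of mice with and without mammary tumors. The list held 34 genes, of which 32 were measured, out of 18193 genes named by a single symbol on the array. It comprised 10 cathepsins and other proteases, 7 glycosidases, 5 genes of lipid handling, 7 lysosomal membrane proteins and 5 subunits of the vacuolar proton pump (V-ATPase). A gene was read by the brightest of its probe sets, judged by the mean level across all 93 arrays. The annotation table names no probe set with the single symbol Cd63 or Atp6v0c.

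Control arrays (n = 28) came from wild type, tumor-free FVB/NJ females (FVB/N in the study's text) of matched age and parity. Tumor arrays (n = 65) came from MMTV/c-MYC transgenic females of that strain with advanced mammary tumors. In these animals the mouse mammary tumor virus long terminal repeat, a hormone-responsive promoter active in mammary epithelium, drives c-MYC or a more stable point mutant of it. Per the study's methods, several transgenic lines were used and all females, controls included, were bred continuously. The study states only an average age at euthanization, and the line and age behind each array are not given in the sources used here. Cheek blood was depleted of red cells, and RNA of the leukocyte pellet was amplified and hybridized to an Affymetrix mouse genome array. Arrays fall into a training cohort (14 control, 32 tumor) and a validation cohort (14 control, 33 tumor). Labels do not identify individual animals, so every error and p-value describes variation among arrays. Values are log2 levels, and a difference of 1 is a doubling.

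Tumor arrays were split by the number in their label into early-numbered arrays (training 1 to 5 and validation 1 to 8, n = 13) and late-numbered arrays (all others, n = 52). "Early" and "late" refer to that number alone and not to tumor stage. This split, drawn with earlier results of these data known, coincided with technical readings. The 3' probe set of dap, a bacterial RNA that is added to samples as a control, read 6.57 to 10.8 on the late-numbered arrays. On control arrays it read 1.74 to 3.55, and on early-numbered arrays 2.11 to 3.83. The difference between the 5' and 3' probe sets of the actin control ran from -2.0 to -1.2 on early-numbered arrays and from -0.9 to -0.5 on controls. On late-numbered arrays it ran from -2.3 to -0.4, with a mean of -0.54. Late-numbered membership and the spike-in therefore cannot be told apart against controls, nor can early-numbered membership and the loss of 5' actin signal. The 18S rRNA control averaged 7.78 in controls, 8.66 in late-numbered and 9.52 in early-numbered arrays. For the GAPDH control the difference of 5' and 3' probe sets averaged -1.18, -1.32 and -1.38 in the same order.

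Lysosomes are acidic organelles in which proteins, glycans and lipids are broken down. The V-ATPase pumps protons into them, soluble hydrolases such as the cathepsins work at that low pH, and heavily glycosylated membrane proteins line the limiting membrane. Among blood leukocytes, monocytes and neutrophils are rich in lysosomes and related granules, while lymphocytes hold few. Many genes of the pathway are transcribed together by the factor TFEB and its relatives, which read an E-box with the core CACGTG. MYC, with its partner MAX, reads the same core. By quantitative RT-PCR the study found c-MYC mRNA in blood cells of its transgenic mice very low or absent beside mammary tumors. It also reports no significant difference in Myc probe set signal between its groups of mice.

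The 2 tumor sets moved in opposite directions from the controls. In late-numbered arrays 22 of 32 members were higher than in controls (68.8%), 2 were lower (Asah1 and Lamp1) and 8 did not pass the test, with a median log2 difference of 0.43. Of all 45037 probe sets tested, 23.9% were called higher and 19.9% lower in that comparison, and of genes read above the median level of all probe sets 34.2% were higher, with a median of 0.02. In early-numbered arrays 18 members were lower (56.3%), 1 was higher (Atp6v0d1) and 13 did not pass, with a median of -0.29. There 24.6% of all probe sets were called lower and 37.9% higher. Genes above the median level fell broadly in the early-numbered arrays, 46.9% of them being called lower with a median of -0.24, so the fall of the members was near that background. The direct comparison of the tumor sets takes no difference from control arrays, which entered it only through the shared cohort term and spread. In it 26 members were higher in late-numbered arrays (81.3%), 0 were lower and 6 did not pass, with a median of 0.82. Of all probe sets 27% were higher there and 41% lower, and of genes above the median level 49.3%, with a median of 0.26. The calls come from limma, two-sided, at an adjusted p under 0.05 and the count of lower members between the tumor sets was 0 at an unadjusted p under 0.05 too.

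Pooling all 65 tumor arrays against the controls, as the study did, gave 17 members higher (53.1%), 3 lower and 12 not called, with a median of 0.25. Across all probe sets 23.4% were higher and 18.2% lower. Of those 17 members 6 were called higher in each cohort alone. With the label number as a replicate block 4 were higher, but tumor arrays numbered above 14 have no control of their number. They add nothing to that difference, which rests on fewer tumor arrays and a larger part of early-numbered ones. With the first 3 principal components of the control probe sets as covariates 7 were higher and 11 lower, with a median of -0.054, so the pooled direction depends on the fit. Late-numbered and early-numbered arrays are set side by side below because they share their controls. Late-numbered arrays were also set against the training controls and early-numbered against the validation controls, so that no array was shared. Then 11 members were called higher in late-numbered and lower in early-numbered arrays, against 12 with all controls. The share of all genes called in that pattern was not counted, so whether these counts stand out is not known. With all controls, 34.2% of genes above the median level were higher in late-numbered arrays and 46.9% lower in early-numbered ones.

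**Figure D1:**
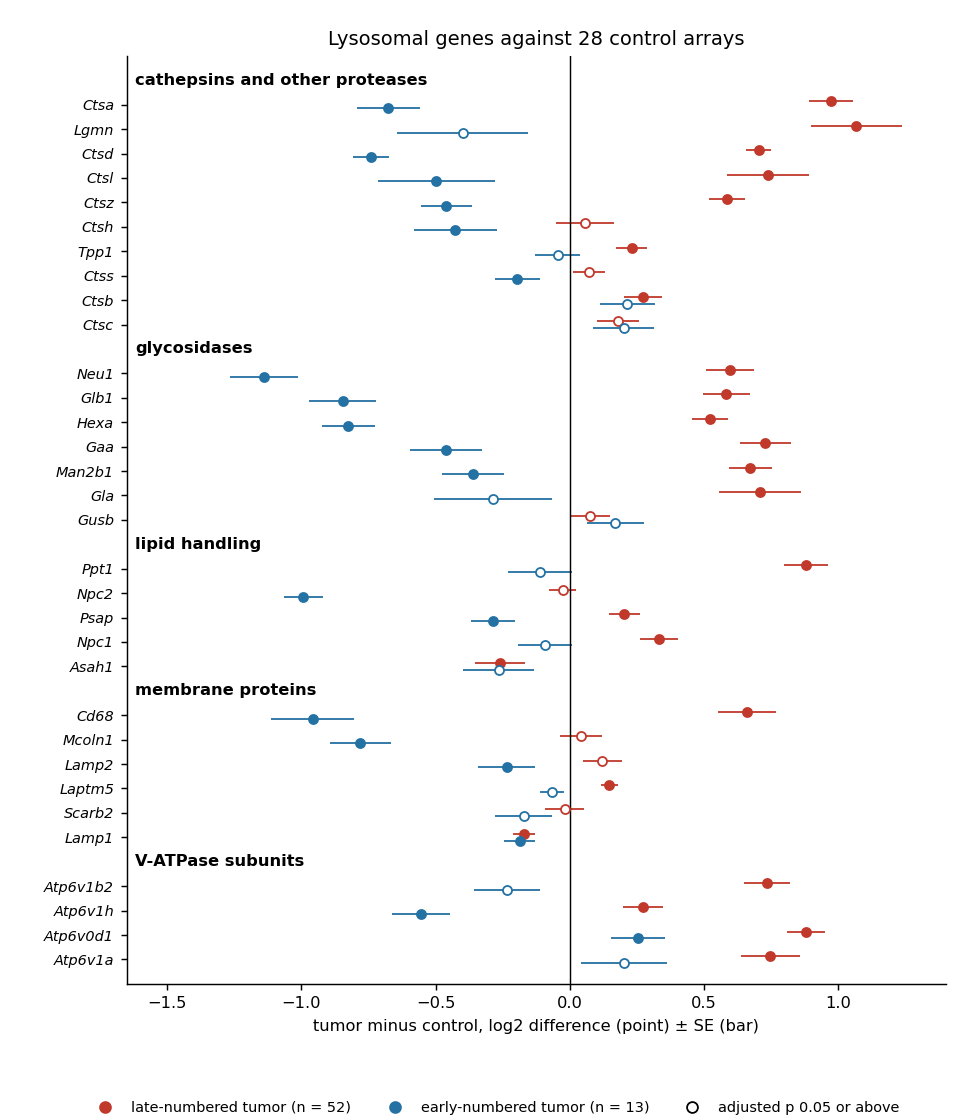
Log2 difference from 28 control arrays (points) with its SE (bars) for 32 lysosomal genes, by class, in late-numbered (red, n = 52) and early-numbered (blue, n = 13) tumor arrays. Filled points passed an adjusted p of 0.05 in limma. Red points lie mostly right of 0 and blue points mostly left of it. Lamp1, Asah1, Npc2 and Scarb2 lie left of 0 in both sets. Atp6v0d1, Atp6v1a, Ctsb, Ctsc and Gusb lie right of 0 in both.

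Cathepsins and other proteases showed 7 of 10 members higher in late-numbered arrays (median 0.43) and 6 of 10 lower in early-numbered arrays (median -0.41). Of genes above the median level, 34.2% were higher in late-numbered and 46.9% lower in early-numbered arrays. The early-numbered count was near that share. Ctsd encodes cathepsin D, the main aspartic protease of the lysosome. Its log2 level ran from 11.3 over a median of 11.7 to 12.0 in controls, from 12.1 over 12.4 to 12.8 in late-numbered arrays, and from 10.5 over 11 to 11.4 in early-numbered arrays. All 52 late-numbered arrays lay above the highest control and 11 of 13 early-numbered arrays below the lowest control. The difference was 0.70 ± 0.05 (SE; limma adjusted p = 1.7e-24) in the late-numbered set and -0.74 ± 0.07 (adjusted p = 8.3e-17) in the early-numbered set. Ctsa, cathepsin A, is a serine carboxypeptidase that also protects the galactosidase and sialidase encoded by Glb1 and Neu1. It ran from 10.0 over 10.6 to 11 in controls, from 10.7 over 11.6 to 12.1 in late-numbered and from 9.02 over 9.9 to 10.4 in early-numbered arrays. Every late-numbered array was above every early-numbered one, and the differences from controls were 0.97 ± 0.08 and -0.68 ± 0.12.

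Lgmn encodes legumain, an asparaginyl endopeptidase that matures cathepsins. Its level ran from 6.71 over 7.49 to 8.59 in controls, from 5.23 over 8.49 to 10.9 in late-numbered and from 4.73 over 7.18 to 8.4 in early-numbered arrays. The sets overlapped widely, and only 24 of 52 late-numbered arrays were above the highest control, although the mean difference of 1.07 ± 0.17 exceeded that of any other member in that comparison. The early-numbered difference of -0.40 ± 0.24 did not pass (adjusted p = 0.14). Ctsz, a carboxypeptidase, was higher by 0.59 ± 0.07 in late-numbered arrays and differed by -0.46 ± 0.10 in early-numbered ones. The cysteine protease gene Ctsl was higher by 0.74 ± 0.15 in late-numbered arrays, with a wide spread in the early-numbered set (SD 1.14, from 4.24 to 8.77).

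Other proteases differed less, as read by their brightest probe sets. Ctsb, the most studied cysteine cathepsin, was 0.27 ± 0.07 higher in late-numbered arrays and 0.21 ± 0.10 (adjusted p = 0.061) in early-numbered arrays, and the tumor sets differed by 0.06 ± 0.10. Its next 2 probe sets (mean levels 10.8 and 8.88) were higher in late-numbered than in early-numbered arrays, by 0.84 and 0.71. For Ctsc, which activates the serine proteases of neutrophil granules, the differences of 0.18 ± 0.08 and 0.20 ± 0.11 did not pass. Ctss and Ctsh, which are abundant in antigen-presenting cells, differed from controls by 0.07 and 0.06 in late-numbered arrays without passing, and fell by 0.20 and 0.43 in early-numbered arrays. Tpp1, a tripeptidyl peptidase, was higher by 0.23 ± 0.06 in late-numbered arrays and was at -0.04 ± 0.08 in early-numbered ones.

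Glycosidases, which trim sugars from glycoproteins and glycolipids, showed the largest class median between the tumor sets, at 1.19. In late-numbered arrays 6 of 7 were higher (median 0.60) and in early-numbered arrays 5 of 7 were lower (median -0.46). The shares for genes above the median level were 34.2% and 46.9%. Neu1, the lysosomal sialidase, ran from 7.24 over 7.84 to 8.2 in controls, from 7.72 over 8.37 to 9.77 in late-numbered arrays and from 5.99 over 6.66 to 7.99 in early-numbered arrays. Of the early-numbered arrays, 11 of 13 were below the lowest control, and 33 of 52 late-numbered arrays were above the highest. Its differences were 0.60 ± 0.09 and -1.14 ± 0.13, and the tumor sets differed by 1.74 ± 0.12 (limma adjusted p = 2.0e-24). Hexa encodes the alpha subunit of beta-hexosaminidase. It ran from 11.1 over 11.5 to 11.9 in controls, from 10.3 over 12.1 to 12.7 in late-numbered and from 9.83 over 10.7 to 11 in early-numbered arrays. All 13 early-numbered arrays were below the lowest control and 51 of 52 late-numbered arrays were above the highest early-numbered one.

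Glb1, beta-galactosidase, was 0.58 ± 0.09 higher in late-numbered arrays and lower in early-numbered ones, at -0.85 ± 0.13, with no overlap between the tumor sets. Man2b1, the lysosomal alpha-mannosidase, was at 0.67 ± 0.08 and -0.36 ± 0.11. Gaa, the acid alpha-glucosidase that degrades glycogen, was read at a control median of 5.75, where the median probe set level was 4.79, and was at 0.73 ± 0.09 and -0.46 ± 0.13. Gla, alpha-galactosidase A, rose by 0.71 ± 0.15 in the late-numbered set, while its early-numbered value of -0.29 ± 0.22 did not pass. Gusb, beta-glucuronidase, did not pass in either set, at 0.08 ± 0.07 and 0.17 ± 0.11.

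Promoters of the members were searched for the E-box named above. In RefSeq promoters of build GRCm38.p6, which span 250 bases before to 50 after the start, CACGTG was searched on both strands. It was found for 11 of the 28 members with a promoter in the table (39.3%) and for 8.09% of all 27025 genes. Longer by a base, TCACGTG contains the core and was found for 10 members (35.7%) and 4.29% of all genes. By class, the core was found in 4 of 8 proteases, 3 of 7 glycosidases, 0 of 3 lipid genes, 2 of 7 membrane proteins and 2 of 3 V-ATPase subunits. These shares describe the letters, not binding. Sites of 6 genes that rose in late-numbered arrays are shown 5' to 3' on the gene's own strand, with the core in capitals.

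Ctsd: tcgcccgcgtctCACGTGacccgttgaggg
Lgmn: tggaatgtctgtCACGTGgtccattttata
Gaa: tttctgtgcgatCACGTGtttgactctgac
Glb1: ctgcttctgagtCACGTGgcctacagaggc
Gla: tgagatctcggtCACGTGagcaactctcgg
Atp6v1a: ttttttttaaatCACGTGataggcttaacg

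The Ctsd site lies at chr7:142387908-142387937 on the minus strand and its core begins 98 bases before the start. Those of Lgmn (chr12:102439124-102439153, minus strand) and Glb1 (chr9:114401018-114401047, plus strand) begin 49 and 48 bases before it. The Gaa site (chr11:119267811-119267840, plus strand) begins 140 bases before, that of Gla (chrX:134601182-134601211, minus strand) 194 and that of Atp6v1a (chr16:44139373-44139402, minus strand) 131. Of the 11 measured members with the core, 9 were higher in late-numbered arrays and 1 was lower (Lamp1), with a median of 0.73. Of the 15 measured members whose promoter lacked it, 9 were higher and 0 lower, with a median of 0.20. In early-numbered arrays the medians were -0.46 and -0.23. Any link between the core and these differences was not tested. The shares called among all genes with and without the core were not counted. Lamp1, which holds 4 copies of the core within 61 bases of its start, was lower in both tumor sets.

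**Figure D2:**
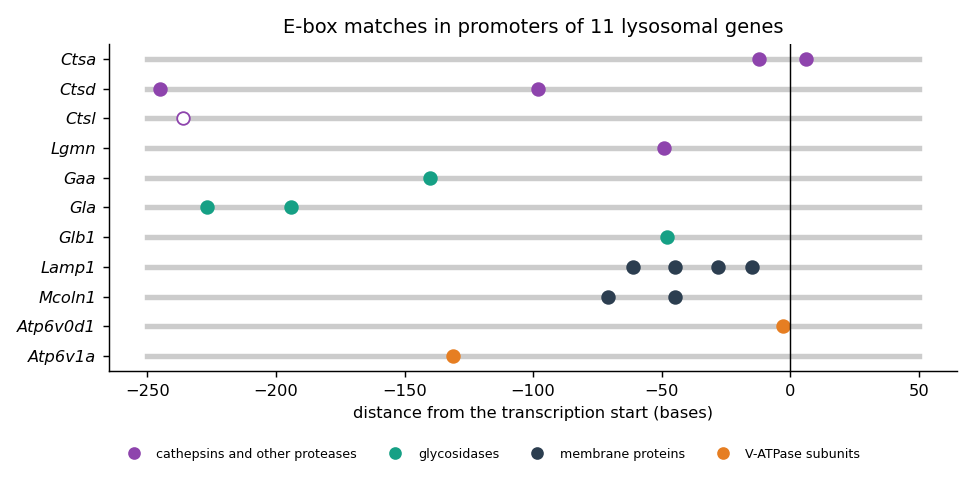
Positions of CACGTG in the RefSeq promoters of 11 lysosomal genes, as distance from the transcription start in bases (x axis). Each grey bar is the window of 250 bases before to 50 after the start, filled points have a T before or an A after the core, and the open point (Ctsl) has neither. Of 18 matches 17 lie before the start, and Lamp1 has 4.

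Lipid handling was split. Ppt1, which removes palmitate from proteins, ran from 9.09 over 9.53 to 9.89 in controls, from 9.05 over 10.4 to 11 in late-numbered arrays and from 8.7 over 9.5 to 10.1 in early-numbered arrays. Of the late-numbered arrays, 49 of 52 were above the highest control (difference 0.88 ± 0.08), while the early-numbered arrays straddled the controls (-0.11 ± 0.12, not called). Npc2, the soluble cholesterol carrier of the lysosome, had the reverse form. It ran from 11.9 over 12.2 to 12.4 in controls, from 11.6 over 12.1 to 12.6 in late-numbered and from 10.8 over 11.1 to 11.6 in early-numbered arrays, so that all 13 early-numbered arrays were below the lowest control. Its early-numbered difference was -0.99 ± 0.07 (limma adjusted p = 8.2e-22) and its late-numbered one -0.03 ± 0.05.

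Npc1, the membrane partner of Npc2, was 0.33 ± 0.07 higher in late-numbered arrays and at -0.09 ± 0.10, not called, in early-numbered ones. Psap, the precursor of the saposins that present glycolipids to their hydrolases, was at 0.20 ± 0.06 and -0.29 ± 0.08. Asah1, acid ceramidase, was lower in late-numbered arrays, at -0.26 ± 0.09, and at -0.27 ± 0.13 (adjusted p = 0.071) in early-numbered arrays.

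Membrane proteins moved less in the late-numbered set, with 2 of 6 higher and 1 lower (median 0.08), and 4 of 6 were lower in early-numbered arrays (median -0.21). Genes above the median level gave 34.2% higher (median 0.02) and 46.9% lower (median -0.24), near these values. Averaged over the 6 genes, all 13 early-numbered arrays lay below the lowest control array, but only just. The highest early-numbered mean was -0.218 and the lowest control mean -0.216, a gap finer than the rounding of the deposited values. This mean also includes Lamp2, whose direction in early-numbered arrays depends on the probe set. Cd68, a LAMP-family protein of monocytes and macrophages, ran from 9.77 over 10.5 to 11.3 in controls, from 8.38 over 11.2 to 11.7 in late-numbered arrays and from 8.69 over 9.51 to 10.2 in early-numbered arrays. Its differences were 0.66 ± 0.11 and -0.96 ± 0.15. Mcoln1, a lysosomal calcium channel, was at 0.04 ± 0.08 in late-numbered arrays and fell by 0.78 ± 0.11 in early-numbered arrays, 8 of 13 of which were below the lowest control.

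Lamp1, one of the main glycoproteins of the lysosomal membrane, ran from 12.2 over 12.5 to 12.6 in controls, from 11.7 over 12.3 to 12.6 in late-numbered arrays and from 11.7 over 12.3 to 12.5 in early-numbered arrays. The ranges overlapped almost entirely, and the differences of -0.17 ± 0.04 and -0.19 ± 0.06 were small but called. Laptm5, a lysosomal protein of hematopoietic cells, was 0.15 ± 0.03 higher in late-numbered arrays and at -0.07 ± 0.05 in early-numbered ones. Lamp2 was called only in early-numbered arrays (-0.23 ± 0.11), and Scarb2, the receptor that carries glucocerebrosidase to lysosomes, in neither (-0.02 ± 0.07 and -0.17 ± 0.11).

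V-ATPase subunits were higher in late-numbered arrays for 4 of 4 measured members, with a median of 0.74. Among genes above the median level 34.2% were higher there. Atp6v0d1, a subunit of the membrane sector, ran from 9.34 over 9.77 to 10.3 in controls, from 9.51 over 10.7 to 11.5 in late-numbered arrays and from 9.59 over 10.1 to 10.5 in early-numbered arrays. Of the late-numbered arrays 45 of 52 exceeded every control. It was the only member called higher in both tumor sets, by 0.88 ± 0.07 and 0.26 ± 0.10. The second value fell short of the threshold in the validation cohort (0.15, adjusted p = 0.43). Atp6v1a, the catalytic subunit, was at 0.75 ± 0.11 and 0.20 ± 0.16, and Atp6v1b2, its non-catalytic partner, at 0.73 ± 0.09 and -0.23 ± 0.12, neither early-numbered value being called. Atp6v1h, a regulatory subunit, was at 0.27 ± 0.07 and -0.55 ± 0.11.

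**Figure D3:**
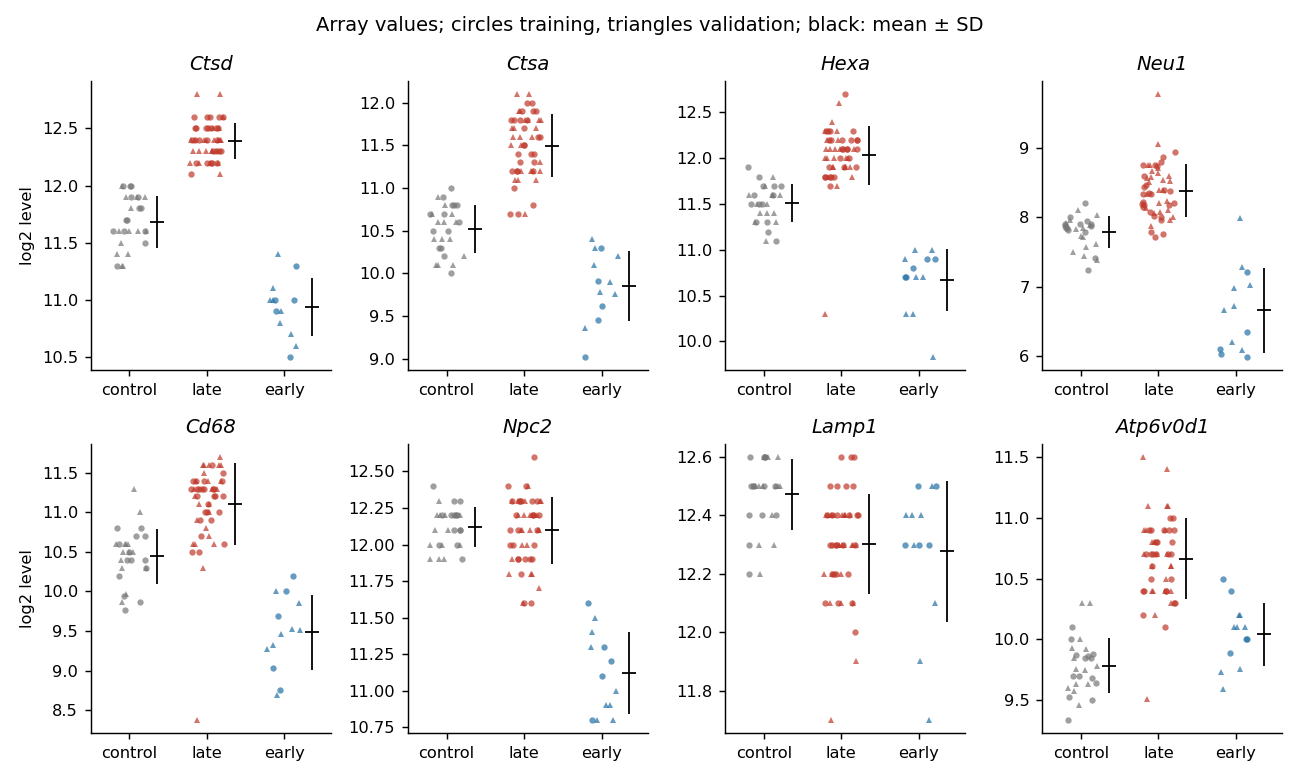
Log2 level of 8 lysosomal genes on each array (y axis) in 28 control (grey), 52 late-numbered (red) and 13 early-numbered (blue) tumor arrays, with the mean ± SD in black beside each set. Circles are training and triangles validation arrays. All late-numbered Ctsd values, from 12.1 upward, lie above the highest control of 12.0, Npc2 is low only in the early-numbered set, and Lamp1 overlaps across all sets.

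Most members moved the same way in both cohorts. Late-numbered and control arrays differed with the same sign in both cohorts for 29 of 32 members, and 18 of the 22 higher members were called higher in each cohort alone. For early-numbered arrays the sign was shared by 28 members, and 10 of the 18 lower members were called lower in each. Between the tumor sets 21 of 26 were called in each. When the cohort difference itself was tested by an interaction term, 0 members were called in either set by limma, with 1 late-numbered and 5 early-numbered at an unadjusted p under 0.05. Of all probe sets 0% and 0.322% were called.

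Class means per array ranked the sets in the same way. Members averaged per array, as the difference from the control mean, ran from -0.41 to 0.29 in controls, from -0.23 over a median of 0.43 to 0.68 in late-numbered arrays and from -0.66 over -0.32 to 0.05 in early-numbered arrays. In total 42 of 52 late-numbered arrays were above the highest control array. For glycosidases that number was 47, for proteases 36, for V-ATPase subunits 33, and for lipid handling and membrane proteins 23 each. Early-numbered arrays were above the highest control in 1 of 13 cases for V-ATPase subunits and in 0 for the other classes. Fewer of them left the control range downward than late-numbered arrays left it upward, with 5 of 13 below the lowest control for all members. That number was 4 for glycosidases, 3 each for proteases and V-ATPase subunits and 2 for lipid handling. For membrane proteins it was 13, by the narrow gap given above.

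**Figure D4:**
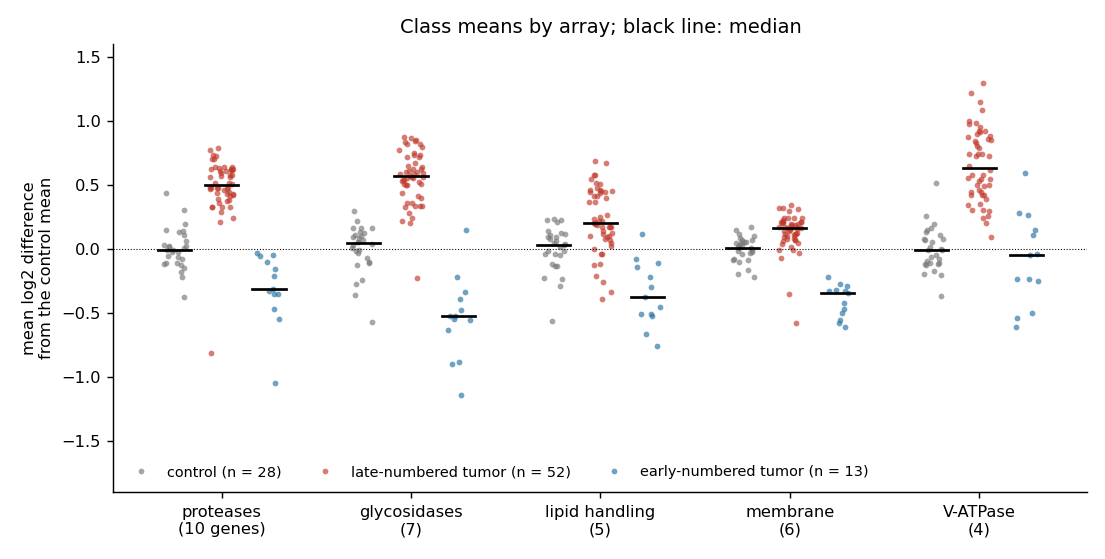
Mean log2 difference from the control mean (y axis) over the genes of each lysosomal class, 1 point per array, in 28 control, 52 late-numbered and 13 early-numbered tumor arrays, with the median as a black line. The medians of late-numbered arrays run from 0.16 for membrane proteins to 0.63 for V-ATPase subunits, and those of early-numbered arrays from -0.52 for glycosidases to -0.05 for V-ATPase subunits. A late-numbered array (array 19 of the validation tumors) is at -0.81 for proteases.

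Array 19 of the validation tumors stood apart. It had the lowest value of all late-numbered arrays for 14 of the 32 members, among them Hexa at 10.3, Lamp2 at 9.71 and Cd68 at 8.38, and the highest for 3 (Gaa, Neu1 and Atp6v1h). Its glycosidase mean was 0.84 above the control mean. Its monocyte marker mean was 8.22 and its platelet marker mean 8.15, against late-numbered medians of 10.6 and 12.5. With Pearson correlation as the measure, its median r with all other arrays was 0.91. A median r under 0.95 was found for 6 tumor arrays (late-numbered validation 9 and 19, early-numbered training 4 and validation 2, 6 and 7). Without them, a setting added after seeing the data, all 22 higher members of the late-numbered set were still called, as were 15 of 18 lower members of the early-numbered set and 25 of 26 between the sets.

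Markers of blood cell types moved beside the lysosomal genes. Pan-leukocyte genes (Ptprc, Cd53, Coro1a, Itgb2) averaged 12.5 in controls, 12.6 in late-numbered and 12.5 in early-numbered arrays, but they did not move together. Itgb2 was at 0.49 in late-numbered and -0.58 in early-numbered arrays, while Ptprc and Cd53 were higher in early-numbered arrays by 0.50 and 0.27. Of 10 neutrophil markers 7 were higher in late-numbered arrays and 0 lower, and in early-numbered arrays 1 was higher and 2 lower. Their mean ran from 10.3 to 12.3 in controls, from 11.2 to 13.1 in late-numbered and from 9.99 to 12.8 in early-numbered arrays. Among 10 monocyte and macrophage markers 5 were higher in late-numbered arrays, while 2 were higher and 2 lower in early-numbered arrays, with means from 9.38 to 10.6, 8.22 to 10.9 and 9.22 to 10.5. Of 9 B cell markers 8 were lower in each tumor set, with means from 8.27 to 9.99 in controls, 6.24 to 9.70 in late-numbered and 6.77 to 9.19 in early-numbered arrays. Of 8 T cell markers 5 and 7 were lower, with means from 9.57 to 11, 8.82 to 11.8 and 8.86 to 10.1. In late-numbered arrays 3 of 5 dendritic cell markers were higher and 1 lower, 1 of 6 NK cell markers was higher and 1 lower, and 1 of 5 erythroid markers was higher. In early-numbered arrays 2 of 5 dendritic cell markers were higher, 3 of 6 NK cell markers lower and 3 of 5 erythroid markers higher. Of 6 eosinophil and basophil markers 1 was higher in late-numbered arrays, and 1 was higher and 2 lower in early-numbered arrays. Of 8 platelet markers 1 was higher and 1 lower in late-numbered arrays, and 2 were lower in early-numbered arrays. For comparison, 23.9% of all probe sets were called higher and 19.9% lower in late-numbered arrays, and 37.9% and 24.6% in early-numbered arrays. Genes above the median level gave 34.2% and 31.8%, then 16.3% and 46.9%. The dendritic and NK cell counts of early-numbered arrays were near such shares. The part of these marker lists in the lysosomal differences was not tested. In pelleted blood, fewer cells of a type and less RNA per cell cannot be told apart. By hematology analyzer the study found similar leukocyte profiles in matched controls and mice with advanced tumors. That blood was drawn from the portal vein after euthanization, and its counts cannot be matched to single arrays here.

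With the array means of the neutrophil, monocyte and macrophage, B cell and T cell lists in the fit as covariates, 15 of the 22 higher members in late-numbered arrays were still called, with a median of 0.21 over all members. In that fit Ctsl went from 0.74 to 0.04, Atp6v1a from 0.75 to 0.16, Cd68 from 0.66 to 0.25 and Psap from 0.20 to 0.00, while Lgmn was at 1.04, Gaa at 0.72, Glb1 at 0.66 and Ctsd at 0.63. Among members lower in early-numbered arrays 12 of 18 were still called, Neu1 at -0.96, Hexa at -0.83 and Npc2 at -0.79. Of the members higher between the tumor sets 20 of 26 were still called. With the actin control difference as covariate the counts were 22, 13 and 21. With the first 3 principal components of the control probe sets as covariates they were 9, 11 and 12, and Hexa (-0.73) and Ctsz (-0.62) turned negative in late-numbered arrays. These components held 94.8% of the variance of late-numbered membership and 47.2% of that of early-numbered membership.

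**Figure D5:**
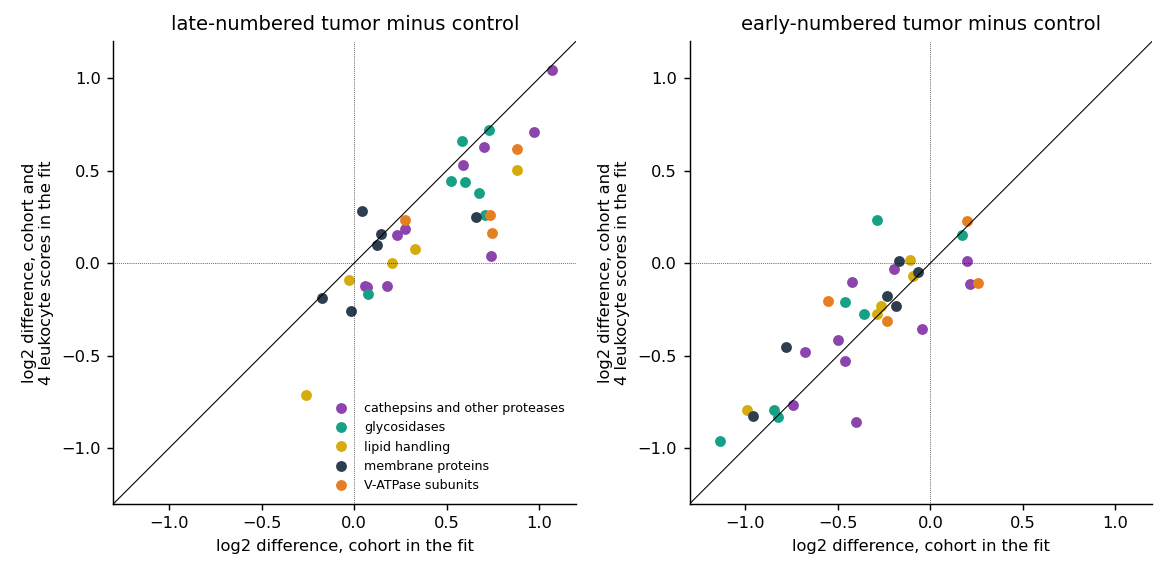
Log2 difference of 32 lysosomal genes from control arrays with cohort alone in the limma fit (x axis) and with 4 leukocyte marker means added (y axis), for late-numbered (left) and early-numbered (right) tumor arrays. Points are genes colored by class and the diagonal marks equal values. On the left most points lie below the diagonal, with Ctsl moving from 0.74 to 0.04, and on the right Neu1 moves from -1.14 to -0.96.

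Mammary epithelial markers were near the floor of the array in all sets, their 9-gene mean running from 3.24 to 4.2 in controls, 3.36 to 5.05 in late-numbered and 3.24 to 4.43 in early-numbered arrays. Of these, 5 were called higher in late-numbered arrays, among them Csn2, the milk protein beta-casein, at a mean of 3.52 ± 1.84 (SD, n = 52) against 2.40 ± 0.225 in controls (n = 28). Its highest late-numbered value was 9.17. Whether this moved with the lysosomal genes was not tested.

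Further lysosomal genes came from lists chosen with earlier results known. Of 102 measured genes, 49 were higher (48%) and 17 lower in late-numbered arrays (median 0.17), where 34.2% of genes above the median level were higher. In early-numbered arrays 17 were higher and 49 lower (48%; median -0.20), near the 46.9% and -0.24 of genes above the median level. Among 27 other lysosomal enzymes the counts were 17 and 4, then 4 and 16. Naglu, which degrades heparan sulfate, was at 0.50 and -0.99, and Scpep1, a serine carboxypeptidase, at 0.35 and -0.99. Ids, the iduronate sulfatase, went the opposite way, at -0.53 and 0.44. The acid phosphatase Acp5 fell by 1.51 in early-numbered arrays and was at 0.19, not called, in late-numbered ones.

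Of 16 other membrane proteins 6 were higher and 1 lower in late-numbered arrays, and 0 were higher and 9 lower in early-numbered arrays. The chloride transporter Clcn7 was at 0.53 and -0.67, Cln3 at 0.85 and -0.50, and Tmem9 at 0.34 and -1.42. Of 16 other V-ATPase subunits 8 were higher and 1 lower in late-numbered arrays, and 8 were higher and 3 lower in early-numbered arrays. There 37.9% of all probe sets were higher, but only 16.3% of genes above the median level. Called lower in early-numbered arrays were 46.9% of those genes, and in late-numbered arrays 34.2% were higher and 31.8% lower. Atp6v1d was at 0.70 and Atp6v1g1 at 0.41 in early-numbered arrays, against -0.02 (not called) and -0.28 in late-numbered arrays. Tcirg1, a large subunit of the membrane sector, was at 0.69 in late-numbered and -0.37 in early-numbered arrays.

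Among 21 genes that deliver cargo to the lysosome 9 were higher and 7 lower in late-numbered arrays, and 3 and 10 in early-numbered arrays. Of genes above the median level 34.2% were called higher and 31.8% lower in late-numbered arrays, and 16.3% and 46.9% in early-numbered arrays. The delivery counts were near those shares. Nagpa, which uncovers the mannose 6-phosphate tag of the hydrolases, was at 0.47 and -1.01, and the tethering subunit Vps11 at 0.61 and -0.77. Sumf1, which activates sulfatases, was lower in late-numbered arrays (-0.66). Of 6 cathepsin inhibitors 2 were higher and 1 lower in late-numbered arrays and 0 and 4 in early-numbered arrays, with Cstb, cystatin B, at 0.44 and -0.93. Cst3, the secreted cystatin C, was at 0.095 (not called) and -0.35.

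Of 16 genes of transcriptional and mTORC1 control 7 were higher and 3 lower in late-numbered arrays, and 2 and 7 in early-numbered arrays. The early-numbered counts were near the 16.3% higher and 46.9% lower of genes above the median level. In late-numbered arrays those shares were 34.2% and 31.8%. Tfeb itself averaged 6.08 ± 0.440 in controls (SD, n = 28), 7.05 ± 0.378 in late-numbered (n = 52) and 5.81 ± 0.412 in early-numbered arrays (n = 13). It was higher by 0.97 ± 0.10 (SE) in late-numbered arrays and at -0.28 ± 0.14 (limma adjusted p = 0.064) in early-numbered ones. The Ragulator subunits Lamtor4 and Lamtor2, which anchor mTORC1 at the lysosome, were at 0.92 and 0.55 in late-numbered arrays and at -0.70 and -0.77 in early-numbered arrays. Flcn, the folliculin gene, went the opposite way (-0.44 and 0.31). Whether any of these genes bears on the members was not tested.

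Other probe sets of the same gene did not always follow the brightest one. Of 32 members 22 had 43 further probe sets, of which 21 were called in the direction of the brightest in late-numbered arrays and 1 in the opposite direction. That 1 was a dimmer Neu1 probe set (mean level 6.70), at -0.35 where the brightest was at 0.60. In early-numbered arrays 8 were called in the same and 5 in the opposite direction. For Lamp2, probe sets read nearly as brightly as the main one (mean levels 11.3 and 11.2) were higher by 0.86 and 0.75 in early-numbered arrays, where the main one was at -0.23, so its direction there depends on the probe set. Ctsc had a probe set at -2.29 and Gusb one at -0.98 in early-numbered arrays, where the main ones were not called. Between the tumor sets 20 further probe sets were called in the direction of the brightest and 10 in the opposite direction. Of these 10, 7 were read below the median probe set level of 4.79, and the other 3 were those of Lamp2, at -0.88 and -0.83, and Atp6v1b2, at -0.86. The count of 26 higher and 0 lower members therefore holds for the brightest probe sets. Among members not called between the tumor sets, further probe sets were called higher in late-numbered arrays for Gusb (1.56), Scarb2 (1.11) and Ctsb (up to 0.84), and Ctsc had one at 2.58 and another at -1.13.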

How the data were processed

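Total RNA of mouse blood leukocytes was profiled on 93 single-channel Affymetrix arrays. Deposited log2 values come from the authors' RMA run (background correction, quantile normalization, probe set summary). Its version is not given in the sources used here. Methods of the study also mention standardizing the data by control probe set components. It is not stated if this was done before deposit. Arrays give no counts, and the errors depend on the number of arrays and the spread among them. Control probe sets (64) were set aside and 45037 tested, and genes were named from 34945 probe sets with a single symbol in the platform annotation.

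Array sets (control, late-numbered tumor, early-numbered tumor) and cohort were fitted together in limma 3.58.1 (R 4.3.3; lmFit, eBayes with intensity trend, two-sided). P-values were adjusted by Benjamini-Hochberg over all probe sets and a call needed an adjusted p under 0.05. The named genes are all members plus up to 4 per further list with the smallest p. Members, array sets and lists were chosen with earlier results of these data known. The fits were tested on simulated data with known changes. Promoters come from RefSeq (GRCm38.p6) and were searched in Python 3.11.15. Alternatives were cohorts alone, other controls, technical and leukocyte covariates, array weights, centring, no trend, a filter on dim probe sets and another choice of probe set.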

Additional observations from a re-analysis of the deposited data

Results flagged for a closer look

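The 2 tumor sets were compared with the same controls, and their difference was tested directly in limma. Between late-numbered and early-numbered arrays 26 members passed, all higher in the late-numbered set as read by their brightest probe sets. Among genes above the median level 49.3% were called higher in that comparison, with a median of 0.26. Of 43 further probe sets of the members 20 were called in the same and 10 in the opposite direction. The log2 differences were 1.74 for Neu1, 1.65 for Ctsa, 1.62 for Cd68, 1.47 for Lgmn, 1.45 for Ctsd and 1.43 for Glb1. Hexa differed by 1.35, Ctsl by 1.23, Gaa by 1.19, Ctsz by 1.05, Man2b1 by 1.03 and Gla by 1.00. For Ppt1 the difference was 0.99, for Atp6v1b2 0.97, for Npc2 0.97, for Atp6v1h 0.83 and for Mcoln1 0.82. Smaller differences were found for Atp6v0d1 at 0.62, Atp6v1a at 0.55, Psap at 0.49, Ctsh at 0.48 and Npc1 at 0.42. The smallest were Lamp2 at 0.36, Tpp1 and Ctss at 0.27 each and Laptm5 at 0.21. The remaining 6 members are not among them, with Gusb at -0.093, Ctsc at -0.023, Asah1 at 0.0051, Lamp1 at 0.016, Ctsb at 0.06 and Scarb2 at 0.15, though other probe sets of Ctsc (2.58 and -1.13), Gusb (1.56), Scarb2 (1.11) and Ctsb (0.84) were called. The spike-in, the actin control and blood cell markers differ between the same array sets, as given above.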

How the results depend on the processing

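Label numbers did not pair the samples (28 pairs of same-numbered arrays, r from -0.468 to 0.237, 11 over 0.1, 0 best matched to their own number). With the number as a replicate block, the late-numbered set had 17 members higher and 1 lower than controls and the early-numbered set 16 lower. Between the tumor sets 22 were higher, while all tumor arrays had 4 higher with a median of 0.0625. In that fit tumor arrays numbered above 14 share no block with a control and add nothing. The tumor sets share no block there either and are compared through controls alone. Members lower in late-numbered arrays numbered 1 in the training cohort and with separate controls, and 4 with leukocyte scores. With 3 control components, late-numbered arrays had 13 higher (median 0.64) and the early-numbered median was -0.12. With leukocyte scores the late-numbered median was 0.21. Members higher in early-numbered arrays numbered 3 in the training and 0 in the validation cohort, 0 with separate controls, the actin covariate or leukocyte scores, 2 with array weights, and 4 with median centring, with the mean of probe sets per gene, or without 6 arrays of low correlation. Between the tumor sets, 3 components gave 15 higher and 2 lower, leukocyte scores 3 lower (median 0.47), the mean of probe sets 1 lower (median 0.62), and leaving out the 6 arrays 1 lower. For all tumor arrays the training cohort gave 0 lower, the validation cohort 6 higher, 3 components 7 higher and 11 lower (median -0.054), and leukocyte scores 11 higher and 5 lower. Members holding the core in the 250 bases before the start alone were 35.7%. Cohort differences gave 0 calls under both covariate settings run.

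Of the member values under alternatives, 1439 kept their direction and side of the threshold, 154 fell below it, 69 passed it and 130 changed sign, 54 of them with a call in at least 1 of the fits compared. Those 54 come first. With 3 components, late-numbered minus control became Ctsz -0.62, Tpp1 -0.30, Hexa -0.73, Lamp2 -1.46, Laptm5 -0.035 and Scarb2 0.80. Early-numbered minus control became Ctsb -0.25 and Atp6v0d1 -0.015. Between the tumor sets it became Ctsh -0.58, Ctsz -0.28, Tpp1 -0.15, Hexa -0.088, Gusb 0.87, Lamp1 -0.55, Lamp2 -1.42 and Laptm5 -0.021. For all tumor arrays it became Ctsa -0.022, Ctsb -0.083, Ctsd -0.42, Ctsz -0.39, Lgmn -1.08, Tpp1 -0.18, Hexa -0.66, Gaa -0.20, Glb1 -0.73, Neu1 -0.36, Asah1 0.040, Lamp2 -0.33, Cd68 -0.45, Laptm5 -0.018 and Scarb2 0.24. With leukocyte scores the reversals were Ctss -0.13 (late-numbered), Atp6v0d1 -0.11 (early-numbered), Ctsh -0.021, Ctss -0.10, Asah1 -0.48, Scarb2 -0.27 and Atp6v1a -0.064 (between the tumor sets), and Ctsc -0.10, Ctsl -0.025 and Ctss -0.12 (all tumor). With the mean of probe sets they were Scarb2 0.52 (late-numbered), Ctsc -0.57, Gusb -0.41, Lamp2 0.31 and Atp6v1h 0.28 (early-numbered), Ctsc 0.47, Gusb 0.73, Lamp2 -0.23 and Atp6v1h -0.059 (between the tumor sets), and Ctsc -0.20 and Scarb2 0.40 (all tumor). The actin covariate gave Tpp1 -0.031 between the tumor sets, and the training cohort Ctsl 0.024 in early-numbered arrays. The other 76 sign changes had no call in either fit. The training cohort gave Mcoln1 -0.027 (late-numbered), Lgmn 0.25 and Tpp1 0.044 (early-numbered), Ctsb -0.23, Asah1 -0.013 and Lamp1 -0.043 (between the tumor sets) and Ctsh 0.085 (all tumor). The validation cohort gave Ctsh -0.070 and Npc2 0.0023 (late-numbered), Ctsc 0.049, Gusb 0.0039 and Asah1 -0.0081 (between the tumor sets), and Ctss -0.049 and Lamp2 -0.034 (all tumor). The replicate block gave Scarb2 0.049 and Mcoln1 -0.081 (late-numbered), Ctsc 0.18 and Lamp1 -0.086 (between the tumor sets), and Ctss -0.021, Hexa -0.11, Glb1 -0.13, Neu1 -0.24, Psap -0.014, Lamp2 -0.061, Cd68 -0.072 and Atp6v1h -0.15 (all tumor). With 3 components they were Ctsh -0.66 and Npc2 0.33 (late-numbered), Gla 0.32, Asah1 0.055, Ppt1 0.22, Npc1 0.046, Scarb2 0.092 and Atp6v1b2 0.060 (early-numbered), Ctsc 0.78 and Asah1 -0.074 (between the tumor sets), and Psap -0.035 and Atp6v1h -0.073 (all tumor). With leukocyte scores they were Ctsc -0.12, Ctsh -0.12 and Gusb -0.17 (late-numbered), Ctsb -0.11, Gla 0.23, Ppt1 0.017 and Scarb2 0.014 (early-numbered), and Gusb -0.12, Psap -0.036 and Mcoln1 0.18 (all tumor). The mean of probe sets gave Ctsc -0.10 and Npc2 0.074 (late-numbered), Gla 0.084, Ppt1 0.13 and Laptm5 0.045 (early-numbered), and Neu1 -0.068 and Mcoln1 0.0064 (all tumor). The actin covariate gave Tpp1 0.22, Gusb -0.12 and Scarb2 0.012 (early-numbered) and Ctsb -0.082, Gusb 0.23 and Scarb2 -0.056 (between the tumor sets). Median centring gave Tpp1 0.029 and Laptm5 0.0081 (early-numbered) and Ctsb -0.021, Asah1 -0.075 and Lamp1 -0.063 (between the tumor sets). Array weights gave Mcoln1 -0.041 (late-numbered), Tpp1 0.023 (early-numbered) and Ctsh 0.082 (all tumor). Without the 6 arrays they were Ppt1 0.041 (early-numbered), Ctsb -0.055 and Asah1 -0.083 (between the tumor sets) and Ctsh 0.057 (all tumor). Without validation tumor array 2 it was Asah1 -0.0045 (between the tumor sets), with separate controls Mcoln1 -0.0086 and with exchanged controls Npc2 0.010 (both late-numbered). The cause of these changes was not tested, and signal over background is not given by the deposited values.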
